A study of Rattus norvegicus with 9 samples.

Results

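The genes described here encode the enzymes and transporters that build and sulfate the chondroitin, dermatan and heparan sulfate chains of proteoglycans. They were chosen by name, as 39 gene symbols, and all 39 had 1 row each among the 18924 genes of the deposited table. Of these, 38 were tested, and the chondroitin 4-O-sulfotransferase gene Chst13 fell below the filter on low counts. RNA came from primary chondrocytes of Sprague-Dawley rats at passage 1 or 2. The cells were held for 24 h with an unnamed inhibitor added to thrombin and rat plasma (RPTi, 3 libraries), in rat plasma with thrombin (RPT, 3 libraries) or in rat plasma alone (RP, 3 libraries). All groups thus carried plasma, and the labels give no dose, age or sex. Whether libraries of 1 group stem from different rats or dishes is not labelled, and a p-value here therefore covers library-to-library spread alone, which could be technical.

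Sulfated glycosaminoglycans are long sugar chains attached to core proteins such as aggrecan, and they give cartilage its fixed negative charge and its swelling pressure. A chain starts on a serine with a tetrasaccharide linker that begins with xylose. Addition of N-acetylgalactosamine next makes chondroitin, which becomes dermatan sulfate where its glucuronic acid is epimerized, whereas addition of N-acetylglucosamine makes heparan sulfate. Sulfotransferases then decorate the chain with sulfate from PAPS, the activated sulfate donor, which is made from sulfate taken up by the cell. In human patients, loss of the sulfate transporter SLC26A2 or of the PAPS synthase PAPSS2 causes skeletal dysplasia.

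The promoters of 31 of the 39 genes were in the RefSeq table for the rat build GRCr8, a later build than the Rnor_6.0 named in the submitters' processing notes, and were searched on both strands for 3 short motifs in the 250 bases before the annotated start. The motif TGANTCA (AP-1, the binding site of FOS and JUN dimers) was found in 0 of the 31 windows, against 6.34% of all 33469 windows in the table. The motif ACAANG (SOX factors) was found in 6 of 31 windows, or 19.4%, against 36.9% of all windows. CCGGAAGT (ETS factors) was found in 1 of 31, or 3.23%, against 3.10%. The G and C content of the 31 windows ran from 49.2% (Hs6st2) to 84.8% (Chsy1). These shares were not adjusted for base content, and its part in them was not tested. No motif overlaps another in the windows shown, and a match is a description of letters, not a bound site. Of the genes with a window, Xylt1 and Slc26a2 changed most between RPTi and RPT among those with levels over 1 FPKM. Their windows are shown with those of the chain polymerizing genes Chsy1 and Chpf, which hold a SOX and an ETS match, in capitals. They lie at chr1:181077972-181078221, plus strand (Xylt1), chr18:56937013-56937262, minus strand (Slc26a2), chr1:129099838-129100087, plus strand (Chsy1) and chr9:84416524-84416773, minus strand (Chpf), and each is written 5′ to 3′ on its gene's strand.
Xylt1: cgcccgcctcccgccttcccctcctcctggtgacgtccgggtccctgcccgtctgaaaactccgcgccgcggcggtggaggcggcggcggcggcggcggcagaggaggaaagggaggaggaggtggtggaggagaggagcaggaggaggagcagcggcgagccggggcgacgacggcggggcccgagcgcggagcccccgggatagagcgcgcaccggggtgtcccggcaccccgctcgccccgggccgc
Slc26a2: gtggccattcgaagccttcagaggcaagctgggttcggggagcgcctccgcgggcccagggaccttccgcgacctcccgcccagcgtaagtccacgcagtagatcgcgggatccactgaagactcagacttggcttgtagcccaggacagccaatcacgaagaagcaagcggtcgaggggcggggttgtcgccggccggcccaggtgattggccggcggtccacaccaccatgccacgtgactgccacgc
Chsy1: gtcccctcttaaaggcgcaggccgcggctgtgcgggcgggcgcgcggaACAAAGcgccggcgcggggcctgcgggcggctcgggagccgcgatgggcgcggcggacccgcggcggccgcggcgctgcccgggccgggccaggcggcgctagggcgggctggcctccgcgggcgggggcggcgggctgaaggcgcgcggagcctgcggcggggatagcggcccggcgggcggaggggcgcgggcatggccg
Chpf: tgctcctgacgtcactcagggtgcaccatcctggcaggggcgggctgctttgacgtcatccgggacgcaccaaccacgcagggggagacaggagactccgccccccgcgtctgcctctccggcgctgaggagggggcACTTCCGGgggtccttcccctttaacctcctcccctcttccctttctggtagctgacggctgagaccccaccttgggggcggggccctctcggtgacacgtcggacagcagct
The SOX match of Chsy1 begins 202 bases and the ETS match of Chpf 113 bases before the annotated start. The windows of Xylt1 and Slc26a2 hold none of the 3 motifs.

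Library totals ranged from 31877265 to 43962783 counts. The chondrocyte label was checked against 10 markers, all of which were detected in every library. Summed, they stood at 76482 to 83077 CPM in RPTi, 31069 to 33135 CPM in RPT and 49298 to 50573 CPM in RP, so that this sum itself differed between the groups with no overlap. The 5 fibroblast-type markers summed to 16039 to 17654 CPM in RPTi, 9503 to 10381 CPM in RPT and 15734 to 17016 CPM in RP, with Col1a1 alone at 6245 to 13574 CPM. The macrophage markers summed to 24.5 to 28.8 CPM in RPTi, 44.5 to 46.3 CPM in RPT and 23.4 to 27.3 CPM in RP and were led by Cd14 at 19.3 to 41.3 CPM, while the defining marker Ptprc reached at most 0.129 CPM. The endothelial markers and the muscle and fat markers reached at most 1.25 CPM and 0.701 CPM in any library. The part of these shifts in the results on the glycosaminoglycan genes was not tested.

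On the scale of FPKM with TMM factors (counts per gene length and library size, the size scaled with TMM factors; called level from here on), the median of the 38 tested genes was 23.2, against 7.43 for all 13856 genes tested. The highest mean level over 9 libraries was that of Sulf2, followed by Papss2, Ext2, B3gat3, Chpf and Papss1, and these 6 held 42.4% of the summed level. Neighbours in this order overlapped in RPT from Papss2 down to Chpf and in RP from Ext2 down to Papss1. In RPTi the ranges of Sulf2 and Papss2 overlapped, and those of the next 4 neighbouring pairs did not. At the low end stood Chst7, Ndst2 and Hs3st1, with mean levels of 0.193, 0.470 and 0.667. Chst13 had 1 count in each of 2 libraries (RPTi replicate 3 and RP replicate 2) and 0 counts in the other 7.

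**Figure D1:**
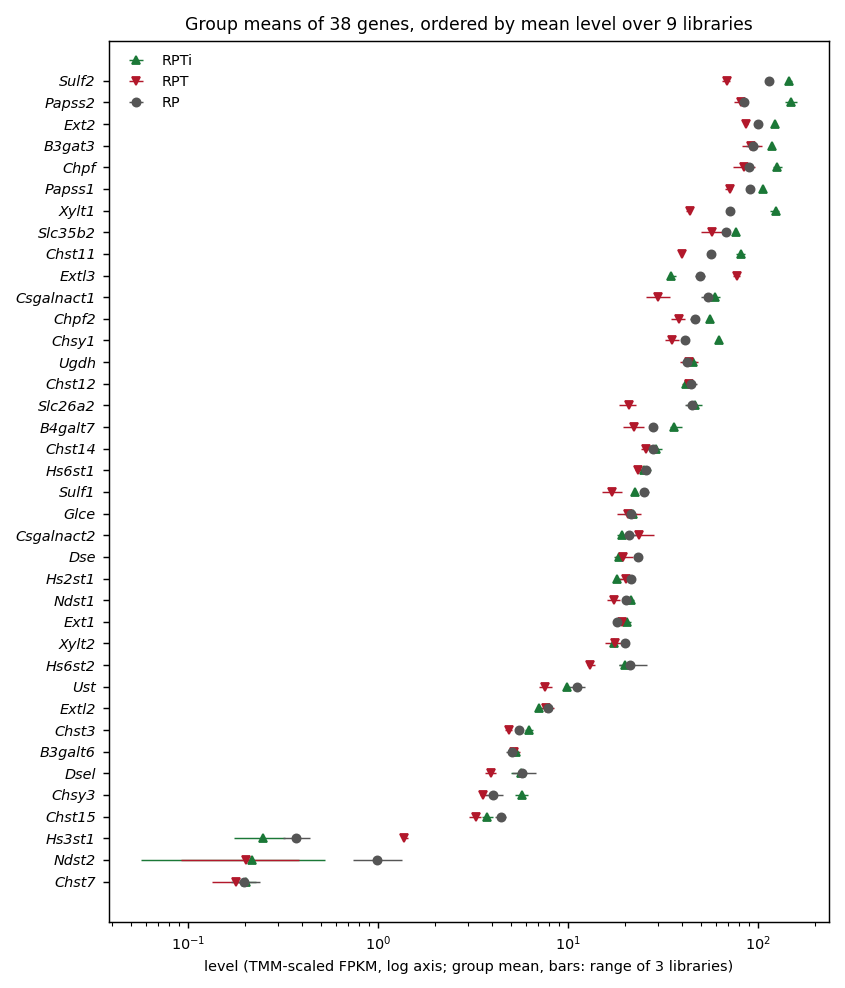
Group means of the level of 38 genes (TMM-scaled FPKM, log axis), ordered by the mean over 9 libraries. Triangles pointing up are RPTi, triangles pointing down RPT and circles RP, and bars span the lowest to the highest of 3 libraries. Sulf2 is at the top and Chst7 at the bottom, and RPTi lies to the right and RPT to the left of RP for Xylt1, Chst11 and Sulf2, while the order is turned for Extl3.

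With thrombin, falls included the sulfate transporter gene Slc26a2, the chain-starting genes Xylt1 and Csgalnact1 (their paralogs Xylt2 and Csgalnact2 did not pass), 5 of 9 genes of chondroitin and dermatan sulfation and epimerization and both endosulfatase genes. Slc26a2 was 2.15-fold lower in RPT than in RP, Csgalnact1 1.82-fold, Sulf2 1.67-fold and Xylt1 1.63-fold, and the members that rose were Extl3 and Hs3st1. In all, 19 of 38 genes fell, 2 rose and 17 did not pass an adjusted p of 0.05 (edgeR quasi-likelihood test, Benjamini-Hochberg adjustment over all genes tested). Of all 13856 genes, 28.9% were called, 15.2% as lower and 13.6% as higher, and of the 8558 genes with a mean of at least 10 CPM, as 35 of the 38 had, 33.3% were called, 15.8% as lower and 17.4% as higher. The median log2 fold change was -0.19 over the 38 genes and -0.00071 over all genes. In bulk RNA, fewer cells of a type and less RNA per cell cannot be told apart.

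Adding the inhibitor to thrombin was accompanied by higher levels of most genes from precursor supply to chondroitin polymerization. Xylt1 was 2.83-fold higher in RPTi than in RPT, Slc26a2 2.24-fold, Sulf2 2.13-fold and Chst11 2.03-fold, whereas Hs3st1 was 5.48-fold and Extl3 2.22-fold lower. Here 21 of 38 genes rose, 2 fell and 15 did not pass, and 4 fell with library totals, with limma on log2(FPKM + 1) or without RPT replicate 2. Among all genes 41.5% were called, and 20.4% rose and 21.1% fell (2825 and 2920 genes; 2359 and 3788 with library totals in place of TMM factors), and among those with at least 10 CPM 46.9% were called, 21.1% as higher and 25.7% as lower. The median log2 fold change was 0.35 over the 38 genes and -0.0083 over all genes. This comparison and the one before share the RPT libraries, so their opposite signs are not independent of each other.

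Against plasma alone, 3 of 5 linker genes, 4 of 6 chondroitin chain genes and both PAPS synthase genes rose with thrombin and inhibitor. Papss2 was 1.76-fold higher in RPTi than in RP, Xylt1 1.74-fold, Chsy1 1.51-fold and Chst11 1.44-fold, while Extl3 was 1.42-fold lower. Of the 38 genes, 12 rose, 4 fell and 22 did not pass. The count of falls rested on single libraries: it was 1 without RPTi replicate 2, 2 without RP replicate 1 or RP replicate 3, and 6 without RPT replicate 3 or with library totals. The shares among all genes were 24.2% called, 11.9% rising and 12.3% falling (1647 and 1705 genes; 1318 and 2280 with library totals), and among genes with at least 10 CPM 29.2% were called, 14.4% as higher and 14.8% as lower. The medians were 0.067 over the 38 genes and -0.0064 over all genes.

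**Figure D2:**
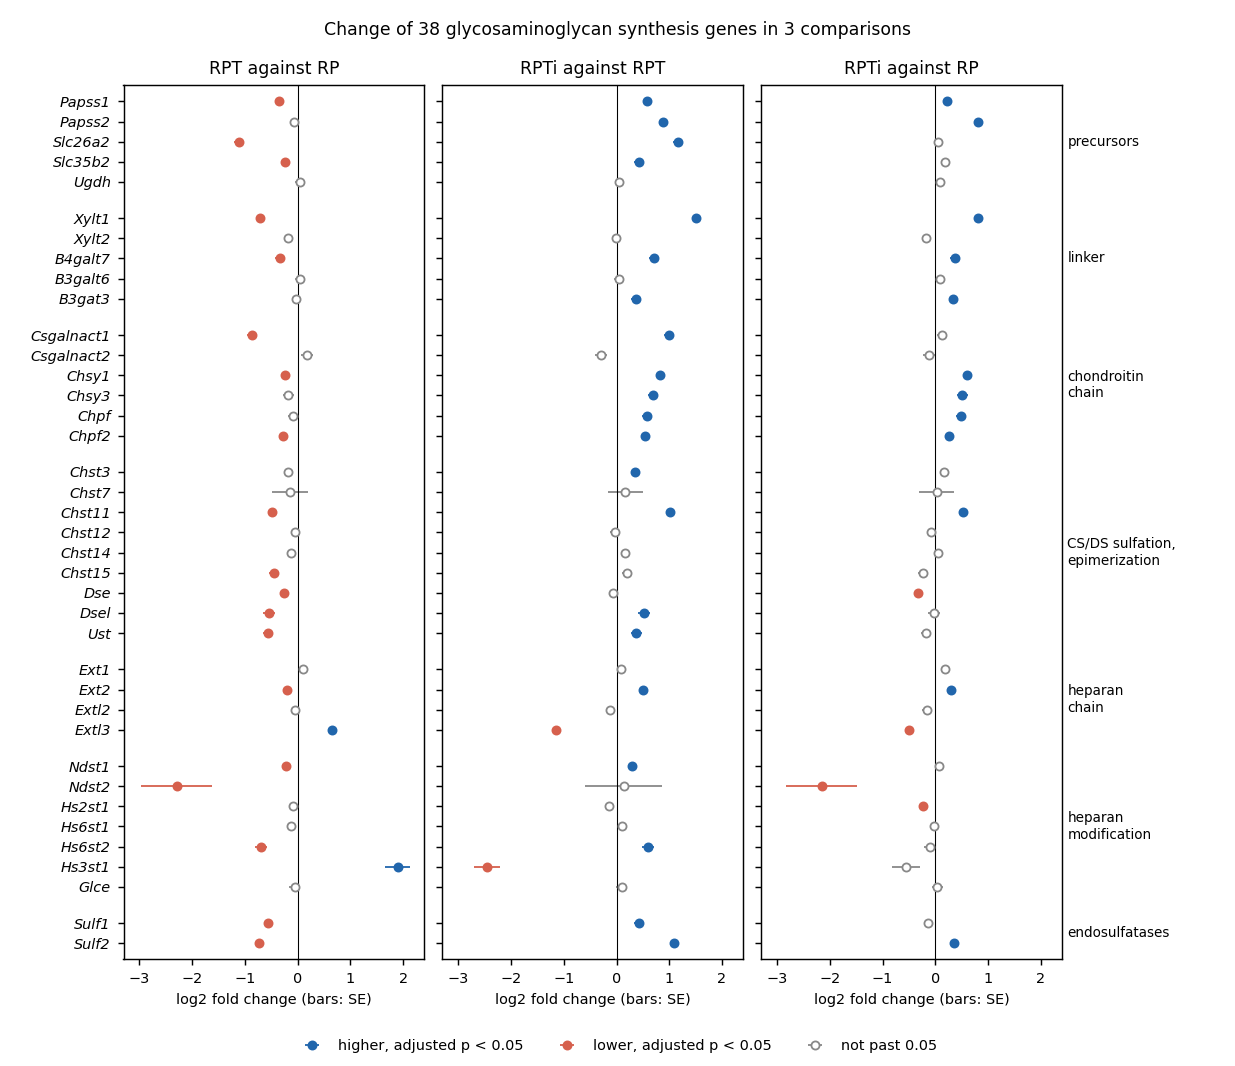
Log2 fold changes (x axis, bars are SE) of the 38 tested genes in RPT against RP, RPTi against RPT and RPTi against RP, grouped by role. Filled blue points are higher and filled red points lower at an adjusted p below 0.05, and open points did not pass. Most points lie left of 0 in the first panel and right of 0 in the second, with Extl3 and Hs3st1 on the other side in both.

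Precursor supply begins with sulfate uptake. From here on, values in parentheses with an SE are log2 fold changes of the named comparison. The sulfate transporter gene Slc26a2 was at 50.8, 42.1 and 47.7 in the RPTi libraries, 21.4, 18.6 and 22.7 in RPT and 47.8, 41.2 and 46.1 in RP (level). The RPT libraries lay below all others, and the RPTi and RP libraries overlapped. Its log2 fold change was -1.11, SE 0.092, adjusted p = 2.35e-06, in RPT against RP, the largest fall among the genes above 1 FPKM, 1.16, SE 0.092, adjusted p = 5.61e-07, in RPTi against RPT, and 0.057, SE 0.090, adjusted p = 0.689, in RPTi against RP. Papss1 and Papss2 encode the bifunctional synthases that turn sulfate into PAPS. Papss1 levels were 107, 106 and 105 in the RPTi libraries, 67.6, 73.1 and 73.0 in RPT and 92.8, 93.6 and 87.4 in RP. These 3 ranges did not overlap (-0.36, SE 0.055 in RPT against RP; 0.58, SE 0.055 in RPTi against RPT; 0.22, SE 0.055 in RPTi against RP). Papss2 stood at 150.1, 139 and 160.3 in the RPTi libraries, 81.9, 75.1 and 87.6 in RPT and 86.1, 81.0 and 88.3 in RP. Its RPT and RP ranges overlapped (-0.063, SE 0.071, adjusted p = 0.555), and the RPTi libraries lay above both (0.88, SE 0.071 against RPT and 0.82, SE 0.071, adjusted p = 4.79e-06, against RP). The PAPS carrier of the Golgi membrane, Slc35b2, had levels of 74.6 to 78.5 in RPTi, 50.1 to 64.8 in RPT and 65.6 to 71.2 in RP. It rose in RPTi against RPT (0.42, SE 0.082), while its fall in RPT against RP (-0.24, SE 0.082, adjusted p = 0.0459) did not pass under 12 of 17 alternatives. Ugdh, which makes the UDP-glucuronic acid of the chain, passed in no comparison, with levels of 44.5 to 47.3 in RPTi, 39.2 to 48.7 in RPT and 39.9 to 47.1 in RP.

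**Figure D3:**
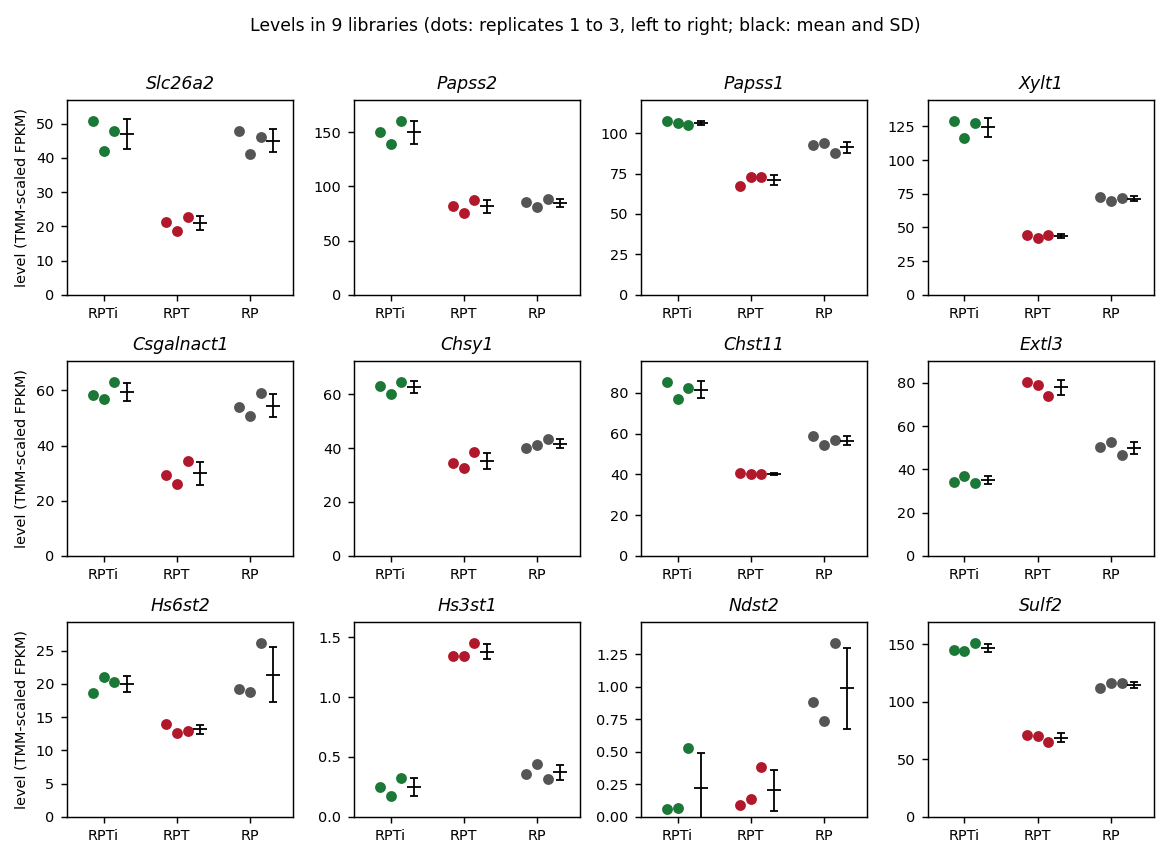
Levels (y axis, TMM-scaled FPKM, from 0) of 12 genes in the RPTi, RPT and RP libraries. Coloured dots are the single libraries and the black mark with its bar is the mean and SD of 3. The RPT dots are the lowest for Slc26a2, Xylt1, Csgalnact1, Chst11 and Sulf2 and the highest for Extl3 and Hs3st1, and replicate 3 of each group is the highest for Ndst2.

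Of the 5 linker genes, 2 fell with thrombin, 3 rose in RPTi against RPT and 3 rose in RPTi against RP. Over all genes tested, 28.9% were called in RPT against RP (15.2% as lower). The shares were 41.5% in RPTi against RPT (20.4% as higher) and 24.2% in RPTi against RP (11.9% as higher). Xylt1, the xylosyltransferase that starts the linker, was at 129, 116 and 127 in the RPTi libraries, 44.5, 42.2 and 44.8 in RPT and 72.5, 69.6 and 72.2 in RP (level). The 3 groups stood apart, with RPT lowest and RPTi highest (-0.70, SE 0.058, adjusted p = 2.31e-06, in RPT against RP; 1.50, SE 0.059, adjusted p = 1.61e-09, in RPTi against RPT; 0.80, SE 0.058, adjusted p = 9.63e-07, in RPTi against RP). Its paralog Xylt2 did not pass in any comparison, at 16.9 to 18.4 in RPTi, 15.7 to 19.1 in RPT and 19.0 to 21.1 in RP, and passed as lower in RPTi than in RP under 3 of 17 alternatives. B4galt7, which adds the first galactose, had levels of 34.4, 39.8 and 35.0 in the RPTi libraries, 22.1, 25.1 and 19.4 in RPT and 28.5, 28.7 and 27.3 in RP. These ranges did not overlap either (-0.34, SE 0.093, adjusted p = 0.0152, in RPT against RP; 0.71, SE 0.093 in RPTi against RPT; 0.37, SE 0.092 in RPTi against RP). B3galt6, which adds the second galactose, passed in none, with levels of 4.71 to 5.58 over all 9 libraries. The glucuronyltransferase gene B3gat3, which completes the linker, had the highest mean level of the 5 over the 9 libraries. In RPTi the mean of Xylt1 was higher (124.2 against 119.2 for B3gat3). B3gat3 was at 120.2, 120.2 and 117 in the RPTi libraries, 89.8, 105 and 82.7 in RPT and 94.5, 102 and 86.5 in RP. RPT and RP overlapped (-0.027, SE 0.085, adjusted p = 0.843), and RPTi lay above both (0.37, SE 0.085 against RPT, 0.34, SE 0.085 against RP).

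The enzymes that start and extend the chondroitin chain included 1 of the larger falls with thrombin. Csgalnact1, which adds the first N-acetylgalactosamine and so commits the linker to chondroitin, was at 58.3, 57.0 and 63.0 in the RPTi libraries, 29.3, 26.0 and 34.4 in RPT and 53.9, 50.6 and 59.1 in RP (level). The RPT libraries lay below the others, with overlap between RPTi and RP (-0.87, SE 0.094, adjusted p = 2.17e-05, in RPT against RP; 0.99, SE 0.094, adjusted p = 3.08e-06, in RPTi against RPT; 0.13, SE 0.093, adjusted p = 0.36, in RPTi against RP). Csgalnact2, its paralog, did not pass in any comparison and leaned the other way (0.18, SE 0.11, adjusted p = 0.265, in RPT against RP; -0.30, SE 0.11, adjusted p = 0.0505, in RPTi against RPT). Under 11 of 17 alternatives, among them DESeq2, it passed as lower in RPTi than in RPT. Chsy1, the chondroitin synthase that polymerizes the chain, was at 63.1, 60.2 and 64.5 in the RPTi libraries, 34.4, 32.7 and 38.7 in RPT and 40.2, 41.0 and 43.4 in RP. All 3 groups stood apart (-0.24, SE 0.068, adjusted p = 0.0208, in RPT against RP; 0.83, SE 0.068, adjusted p = 8.44e-07, in RPTi against RPT; 0.59, SE 0.068, adjusted p = 4.52e-05, in RPTi against RP). The rarer synthase gene Chsy3 was at 5.90, 5.27 and 6.16 in the RPTi libraries, 3.44, 3.57 and 3.75 in RPT and 4.55, 3.88 and 3.70 in RP. RPT and RP overlapped, and RPTi was higher (0.69, SE 0.10 against RPT; 0.51, SE 0.10 against RP). Chpf, a polymerizing factor that works with the synthases, was at 124, 134 and 121 in the RPTi libraries, 84.1, 96.5 and 73.8 in RPT and 89.4, 96.1 and 84.5 in RP. It passed in both RPTi comparisons but not in RPT against RP (0.57, SE 0.088 against RPT; 0.49, SE 0.088 against RP; -0.086, SE 0.088, adjusted p = 0.513, in RPT against RP). Its relative Chpf2 was at 55.7, 57.6 and 54.9 in the RPTi libraries, 39.1, 41.2 and 34.8 in RPT and 47.6, 49.0 and 43.8 in RP. RPT was lowest and RPTi highest (-0.29, SE 0.070, adjusted p = 0.00823, in RPT against RP; 0.55, SE 0.070 in RPTi against RPT; 0.26, SE 0.069, adjusted p = 0.0159, in RPTi against RP).

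Among the sulfotransferases and epimerases of chondroitin and dermatan sulfate, 5 of 9 tested genes fell with thrombin and none rose, against 4 that rose and none that fell in RPTi relative to RPT. Over all genes tested, 28.9% were called in RPT against RP (15.2% as lower) and 41.5% in RPTi against RPT (20.4% as higher). The share of the 9 genes called in RPTi against RPT, 44.4%, was near that of all genes called. Chst11, the main chondroitin 4-O-sulfotransferase of cartilage, had the highest mean level of the group over the 9 libraries. In RPT the mean of Chst12 was higher (43.3 against 40.2 for Chst11). Chst11 was at 85.3, 77.0 and 82.3 in the RPTi libraries, 40.6, 40.0 and 40.0 in RPT and 58.6, 54.3 and 56.7 in RP (level). Its RPT libraries were within a range of 40.0 to 40.6, below RP, and RPTi was above both (-0.49, SE 0.059, adjusted p = 4.86e-05, in RPT against RP; 1.02, SE 0.059, adjusted p = 3.15e-08, in RPTi against RPT; 0.53, SE 0.058, adjusted p = 3.25e-05, in RPTi against RP). Chst12, another 4-O-sulfotransferase, passed in no comparison, with levels of 41.1 to 44.3 in RPTi, 39.8 to 46.1 in RPT and 40.7 to 48.0 in RP. Of the 6-O-sulfotransferases, Chst3 was higher in RPTi than in RPT (6.23 ± 0.312 against 4.92 ± 0.226, SD, n = 3 each; log2 fold change 0.34, SE 0.070), and Chst7 was near the detection limit, with 10 to 21 counts a library and levels of 0.182 to 0.229 in RPTi, 0.134 to 0.204 in RPT and 0.168 to 0.241 in RP. Chst15, which adds a second sulfate to 4-sulfated units, fell with thrombin to 3.29 ± 0.240, against 4.47 ± 0.295 in RP (SD, n = 3; log2 fold change -0.44, SE 0.092, adjusted p = 0.00314), and did not pass in RPTi against RPT (0.20, SE 0.093, adjusted p = 0.107). The uronyl 2-O-sulfotransferase gene Ust was at 9.52, 10.3 and 9.74 in the RPTi libraries, 7.40, 7.08 and 8.27 in RPT and 11.3, 9.82 and 12.4 in RP. RPT lay below both other groups, which overlapped (-0.56, SE 0.10, adjusted p = 0.000934, in RPT against RP; 0.38, SE 0.10, adjusted p = 0.00766, in RPTi against RPT). The dermatan 4-O-sulfotransferase gene Chst14 did not pass in any comparison, at 27.6 to 31.5 in RPTi, 24.4 to 27.2 in RPT and 26.6 to 29.2 in RP.

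The epimerases that turn chondroitin into dermatan, Dse and Dsel, both fell in RPT against RP. Dse was at 18.7 ± 1.19 in RPTi, 19.6 ± 2.29 in RPT and 23.5 ± 1.05 in RP (level, SD, n = 3), lower than RP in both thrombin groups (-0.26, SE 0.084, adjusted p = 0.0338, in RPT; -0.33, SE 0.084, adjusted p = 0.0126, in RPTi), and the comparison of RPTi with RPT did not pass (-0.068, SE 0.084, adjusted p = 0.554). The first of these calls was lost under 7 of 17 alternatives. Dsel was at 6.13, 5.02 and 5.80 in the RPTi libraries, 4.18, 3.65 and 4.05 in RPT and 5.41, 5.11 and 6.78 in RP. Its RPT libraries were the lowest and those of RPTi and RP overlapped (-0.54, SE 0.12, adjusted p = 0.00371, in RPT against RP; 0.51, SE 0.12, adjusted p = 0.00327, in RPTi against RPT; -0.029, SE 0.11, adjusted p = 0.882, in RPTi against RP).

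Heparan chain genes did not move as a block. Ext2, which with Ext1 forms the heparan sulfate polymerase, was at 126, 122 and 122 in the RPTi libraries, 87.4, 88.6 and 85.8 in RPT and 101, 106 and 95.1 in RP (level). RPT was lowest and RPTi highest (-0.21, SE 0.055, adjusted p = 0.0134, in RPT against RP; 0.50, SE 0.055 in RPTi against RPT; 0.29, SE 0.054, adjusted p = 0.00189, in RPTi against RP). Ext1 passed in no comparison, and its levels were 19.7 to 21.5 in RPTi, 18.1 to 20.5 in RPT and 17.4 to 19.0 in RP. In RPTi against RP it passed as higher under 4 of 17 alternatives (0.18, SE 0.069, adjusted p = 0.08, in the reported fit). Extl3, which adds the first N-acetylglucosamine and so commits the linker to heparan sulfate, was at 34.1, 37.1 and 33.8 in the RPTi libraries, 80.4, 79.2 and 74.1 in RPT and 50.2, 52.5 and 46.7 in RP. This is the reverse order of Xylt1, with RPT highest, RPTi lowest and no overlap (0.64, SE 0.064, adjusted p = 9.85e-06, in RPT against RP; -1.15, SE 0.065, adjusted p = 2.47e-08, in RPTi against RPT; -0.51, SE 0.064, adjusted p = 0.000103, in RPTi against RP). Extl2, a transferase that caps phosphorylated linkers, passed in none (6.97 to 7.12 in RPTi, 7.22 to 8.45 in RPT and 7.31 to 8.24 in RP). The committing enzymes of both chain types can be set side by side per length (level, SD, n = 3). In RPTi, Csgalnact1, for chondroitin, was at 59.5 ± 3.17 and Extl3, for heparan, at 35.0 ± 1.79. In RPT, Csgalnact1 was at 29.9 ± 4.23 and Extl3 at 77.9 ± 3.35, and in RP Csgalnact1 was at 54.5 ± 4.29 and Extl3 at 49.8 ± 2.89. Csgalnact1 is not the whole chondroitin side. Its paralog Csgalnact2 was at 19.2 ± 1.55 in RPTi, 23.7 ± 4.24 in RPT and 20.9 ± 1.85 in RP.

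Among genes that modify the heparan chain, calls went in both directions. Hs3st1, the 3-O-sulfotransferase known for the antithrombin-binding site of heparan sulfate, was at 0.248, 0.175 and 0.324 in the RPTi libraries, 1.35, 1.34 and 1.45 in RPT and 0.359, 0.438 and 0.317 in RP (level), from 23, 14 and 30 counts in RPTi, 133, 112 and 123 counts in RPT and 41, 38 and 31 counts in RP. RPT lay above all other libraries (1.89, SE 0.24, adjusted p = 7.19e-05, in RPT against RP; -2.45, SE 0.25, adjusted p = 5.45e-06, in RPTi against RPT), and RPTi and RP overlapped (-0.56, SE 0.26, adjusted p = 0.139). With limma on log2(FPKM + 1), a scale that understates changes of low genes, the log2 fold changes of Hs3st1 were 0.81 in RPT against RP and -0.96 in RPTi against RPT, both past the threshold. The 6-O-sulfotransferase gene Hs6st2 was at 18.6, 21.0 and 20.3 in the RPTi libraries, 14.0, 12.7 and 12.9 in RPT and 19.2, 18.7 and 26.2 in RP. It was lowest in RPT (-0.70, SE 0.12, adjusted p = 0.00064, in RPT against RP; 0.60, SE 0.12, adjusted p = 0.00117, in RPTi against RPT), and RP replicate 3 stood above the other RP libraries. Hs6st1, its paralog and the most abundant gene of the group, was at 24.9, 27.5 and 23.3 in the RPTi libraries, 24.1, 24.0 and 22.6 in RPT and 26.7, 26.3 and 24.5 in RP and passed in no comparison. Ndst1, an N-deacetylase and N-sulfotransferase that starts modification, fell in RPT against RP (-0.21, SE 0.071, adjusted p = 0.0396), a call that 9 of 17 alternatives did not keep, and rose in RPTi against RPT (0.29, SE 0.071, adjusted p = 0.00558). Hs2st1, the 2-O-sulfotransferase, was lower in RPTi than in RP (-0.24, SE 0.075, adjusted p = 0.0363), which failed in 5 of 17 alternatives, with levels of 17.4 to 19.2 in RPTi, 18.5 to 22.4 in RPT and 21.0 to 22.2 in RP. The epimerase gene Glce passed in none, at 20.2 to 23.1 in RPTi, 18.1 to 24.3 in RPT and 19.8 to 22.7 in RP.

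Ndst2, the other N-deacetylase and N-sulfotransferase, had the largest fitted fall with thrombin and a wide spread between libraries. Its counts were 7, 7 and 65 in the RPTi libraries, 12, 15 and 43 in RPT and 134, 85 and 173 in RP, that is, levels of 0.0569, 0.0661 and 0.531 in the RPTi libraries, 0.0917, 0.136 and 0.383 in RPT and 0.886, 0.740 and 1.34 in RP. Replicate 3 was the highest in each group. Over the alternatives the log2 fold change of Ndst2 ran from -3.12, without RPT replicate 3, to -0.72, with limma on log2(FPKM + 1), in RPT against RP. In RPTi against RP it ran from -3.99, without RPTi replicate 3, to -0.73, with limma. The calls of -2.29, SE 0.67, adjusted p = 0.0229, in RPT against RP and -2.16, SE 0.67, adjusted p = 0.0329, in RPTi against RP did not pass in DESeq2 (adjusted p = 0.0569 and 0.0792), and single libraries decided them: the first was lost without RPT replicate 1, RPT replicate 2 or RP replicate 3 (adjusted p = 0.0816, 0.0739 and 0.0602) and the second without RPTi replicate 1 or 2 or RP replicate 1 or 3 (adjusted p = 0.116, 0.112, 0.0569 and 0.0895). Ndst2 overlaps Zswim8 in the GRCr8 annotation, and the strand setting of the counting is not given in the sources used here, so reads of both genes may not be told apart. The same holds for Csgalnact1, Chpf, Chpf2, Ugdh and Ext1, each of which overlaps another protein-coding gene there. Counting partners of any gene type, 18 of the 39 genes overlap another gene, among them Xylt1, Chst11, Papss1, Extl3 and Sulf2. The same limit applies to them.

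The endosulfatases Sulf1 and Sulf2 remove 6-O-sulfate from finished heparan chains outside the cell, and both fell with thrombin. Sulf2 had the highest mean level of the 39 genes over the 9 libraries and in RP, but not in RPTi or RPT. In RPTi the mean of Papss2 was 149.9, against 146.9 for Sulf2. In RPT, B3gat3 (92.5) and Ext2 (87.3) were among the genes with a higher mean than Sulf2 (68.9). Sulf2 was at 145, 144 and 151 in the RPTi libraries, 71.6, 70.3 and 64.9 in RPT and 112, 116 and 116 in RP (level). The 3 groups stood apart (-0.74, SE 0.055, adjusted p = 9.64e-07, in RPT against RP; 1.09, SE 0.055, adjusted p = 9.88e-09, in RPTi against RPT; 0.35, SE 0.054, adjusted p = 0.000482, in RPTi against RP). Sulf1 was at 22.2, 23.2 and 22.8 in the RPTi libraries, 16.7, 15.1 and 19.3 in RPT and 24.5, 24.0 and 26.7 in RP. It was lowest in RPT (-0.56, SE 0.083, adjusted p = 0.000271, in RPT against RP; 0.42, SE 0.083, adjusted p = 0.00138, in RPTi against RPT) and did not pass in RPTi against RP (-0.14, SE 0.082, adjusted p = 0.237).

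Summed over each role, the level of the linker genes was 300.4 to 306 in RPTi, 168 to 197 in RPT and 210.0 to 227 in RP. The chondroitin chain genes summed to 325 to 332 in RPTi, 213 to 219.9 in RPT and 256 to 259.6 in RP, and both endosulfatases to 167 to 174 in RPTi, 84.2 to 88.3 in RPT and 136 to 143 in RP. RPTi stood above RP and RPT below it in these 3 sums. The precursor genes and the chondroitin and dermatan sulfation genes, given below, had the same order. For heparan chain genes the order was another, at 184 to 188 in RPTi, 189 to 195 in RPT and 169 to 183 in RP, with Extl3 highest in RPT and Ext2 highest in RPTi. Precursor genes summed to 411 to 438 in RPTi, 271 to 282 in RPT and 327 to 334 in RP. The chondroitin and dermatan sulfation genes summed to 196 to 198 in RPTi, 147 to 150.5 in RPT and 178 to 183 in RP, and the heparan modification genes to 106 to 109 in RPTi, 93.7 to 100.1 in RPT and 108 to 116 in RP. These sums are descriptions, with no test.

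Within several paralog pairs the balance shifted between groups. Csgalnact1 held 75.0 to 75.9% in RPTi, 54.8 to 56.5% in RPT and 72.1 to 72.6% in RP of the summed level of Csgalnact1 and Csgalnact2. Xylt1 held 86.3 to 88.3% in RPTi, 68.8 to 74.1% in RPT and 76.7 to 79.1% in RP of the Xylt pair. The share of Chst11 in the pair with Chst12 was 63.5 to 67.5% in RPTi, 46.5 to 50.1% in RPT and 53.1 to 58.2% in RP. In these 3 pairs the RPT share was the lowest, with no overlap between groups. Papss1 held 39.6 to 43.3% in RPTi, 45.2 to 49.3% in RPT and 49.8 to 53.6% in RP of the PAPS synthase pair, so its share was highest in plasma alone. Hs6st1 held 53.5 to 57.2% in RPTi, 63.3 to 65.5% in RPT and 48.3 to 58.4% in RP of its pair with Hs6st2, and Sulf1 13.1 to 13.9% in RPTi, 17.7 to 22.9% in RPT and 17.1 to 18.6% in RP of the endosulfatase pair. Dse held 75.2 to 77.8% in RPTi, 82.0 to 84.5% in RPT and 78.4 to 81.5% in RP of its pair with Dsel. Here the RPT share was the highest, with no overlap between groups. The shares of Chst3 over Chst7 and of Ndst1 over Ndst2 stayed at 93.6% or more in every library.

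**Figure D4:**
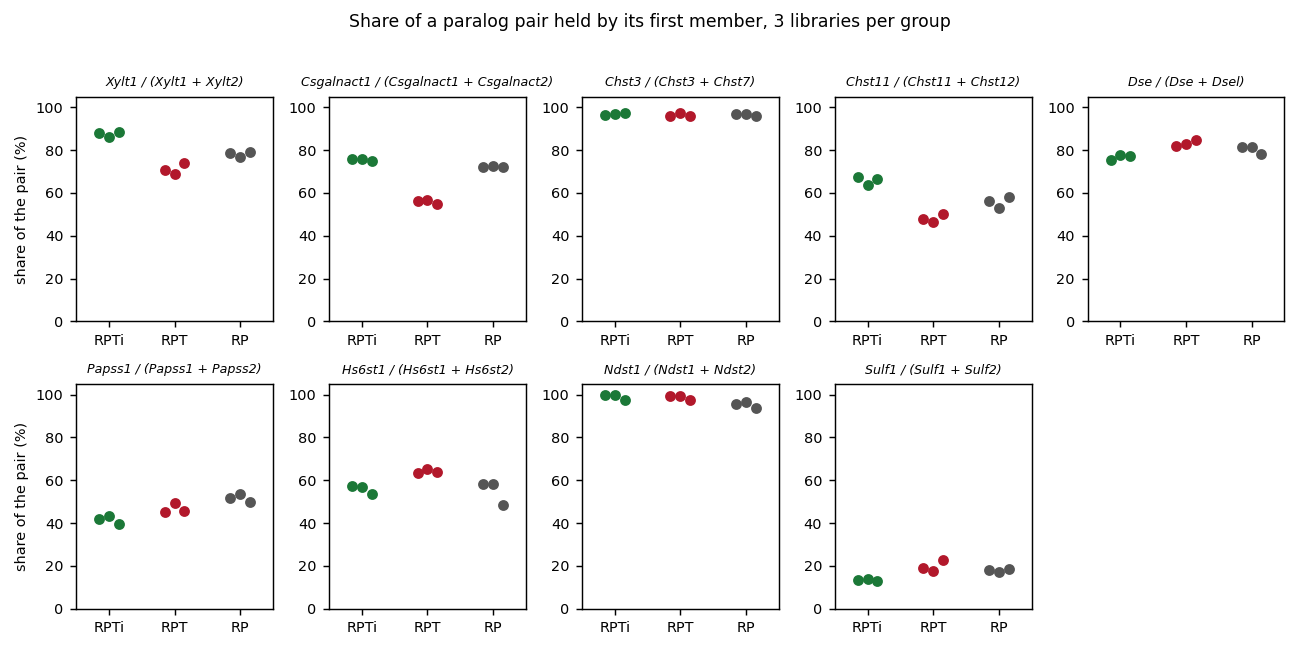
Share of a paralog pair's summed level (y axis, percent, per-length levels) held by its first named member, in the single RPTi, RPT and RP libraries (dots, 3 a group). The RPT dots lie lowest for the Xylt, Csgalnact and Chst11 pairs, and the RPTi dots lowest for the Sulf pair.

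Other genes of chain assembly, from a list of 21 symbols of which 15 were tested, fell in 7 cases and rose in 1 with thrombin (median -0.26 on the log2 scale), and rose in 9 and fell in 2 in RPTi against RPT (median 0.31). For this list and those that follow, the counts stand beside 28.9% of all genes called in RPT against RP and 41.5% in RPTi against RPT. Extl1, an exostosin-like transferase, was at 33.8, 28.2 and 31.1 in the RPTi libraries, 8.23, 8.46 and 7.33 in RPT and 18.6, 20.1 and 17.8 in RP (level). The 3 groups did not overlap (-1.23, SE 0.085 in RPT against RP; 1.95, SE 0.086 in RPTi against RPT). Slc35d1, which carries UDP-glucuronic acid and UDP-N-acetylgalactosamine into the endoplasmic reticulum, was at 44.6, 42.3 and 44.8 in the RPTi libraries, 19.5, 19.2 and 19.9 in RPT and 30.8, 30.7 and 30.4 in RP (-0.65, SE 0.054 in RPT against RP; 1.17, SE 0.054 in RPTi against RPT). Ndst3, a further N-deacetylase and N-sulfotransferase, went the way of Extl3 and Hs3st1, at 0.521, 0.640 and 1.07 in the RPTi libraries, 8.25, 7.06 and 8.44 in RPT and 4.37, 4.72 and 4.66 in RP (0.79, SE 0.16 in RPT against RP; -3.41, SE 0.19 in RPTi against RPT; -2.62, SE 0.19 in RPTi against RP). The xylose kinase gene Fam20b fell in RPT to 20.6 ± 0.543, against 27.9 ± 1.15 in RP (SD, n = 3; -0.43, SE 0.058).

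Genes of keratan sulfate, another sulfated chain of cartilage, gave calls in both directions. Of 11 tested, 4 rose and 2 fell in RPT against RP, and 3 rose and 6 fell in RPTi against RPT (medians 0.13 and -0.33). Chst2, an N-acetylglucosamine 6-O-sulfotransferase, was at 16.5, 16.6 and 14.4 in the RPTi libraries, 30.8, 31.5 and 28.7 in RPT and 32.4, 32.9 and 30.3 in RP. RPT and RP overlapped here, and RPTi was lower (-0.94, SE 0.077 against RPT; -1.01, SE 0.077 against RP). B3gnt2, which extends poly-N-acetyllactosamine, rose in RPT to 20.8 ± 2.74, against 13.9 ± 0.381 in RP (SD, n = 3; 0.58, SE 0.089). Of 15 lysosomal genes for the breakdown of sulfated chains, 1 rose and 4 fell in RPT against RP, a share near that of all genes called (28.9%, or 33.3% of genes with at least 10 CPM), and 8 rose and 2 fell in RPTi against RPT. The one that rose with thrombin was Arsb, the N-acetylgalactosamine 4-sulfatase, at 28.6, 28.5 and 29.4 in the RPTi libraries, 47.3, 47.0 and 49.9 in RPT and 36.4, 36.4 and 37.7 in RP. RPT was highest and RPTi lowest, the opposite order to that of the 4-O-sulfotransferase gene Chst11 (0.38, SE 0.053 in RPT against RP; -0.74, SE 0.053 in RPTi against RPT; -0.35, SE 0.053 in RPTi against RP). The hyaluronidase gene Hyal1 fell in RPT to 7.35 ± 0.406, against 12.6 ± 0.687 in RP (SD, n = 3; -0.78, SE 0.082).

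Core proteins that carry these chains split by gene. Of 12 for chondroitin or dermatan sulfate, 2 rose and 3 fell in RPT against RP, and 6 rose and 2 fell in RPTi against RPT. The aggrecan gene Acan and Col9a2 were among the 3 called genes with the smallest p in each comparison. Acan ranged from 4706 to 16940 CPM over the 9 libraries. The chondroitin sulfate proteoglycan gene Cspg4 was at 151, 153 and 150.4 in the RPTi libraries, 75.0, 78.6 and 66.5 in RPT and 71.4, 70.7 and 64.5 in RP. RPT and RP overlapped (0.092, SE 0.066), and RPTi was higher (1.14, SE 0.066 against RP). Epyc, a small leucine-rich proteoglycan, was at 49.1, 36.7 and 48.8 in the RPTi libraries, 15.1, 13.7 and 13.7 in RPT and 29.0, 30.8 and 37.2 in RP (-1.19, SE 0.12 in RPT against RP; 1.67, SE 0.12 in RPTi against RPT). Of 11 tested genes for heparan sulfate core proteins, 3 rose and 7 fell in RPT against RP, and 6 rose and 4 fell in RPTi against RPT. The glypican gene Gpc3 was at 32.3, 28.3 and 33.5 in the RPTi libraries, 10.8, 11.8 and 11.3 in RPT and 21.3, 19.5 and 21.7 in RP (-0.88, SE 0.082 in RPT against RP; 1.47, SE 0.082 in RPTi against RPT). Agrn, the agrin gene, was at 21.5, 20.9 and 21.0 in the RPTi libraries, 9.81, 10.1 and 9.59 in RPT and 14.5, 14.8 and 14.4 in RP (-0.56, SE 0.053 in RPT against RP; 1.10, SE 0.053 in RPTi against RPT). By contrast, the collagen XVIII gene Col18a1 was lowest in RPTi, at 13.9, 13.8 and 13.9 in the RPTi libraries, 24.6, 26.0 and 22.4 in RPT and 29.7, 30.2 and 28.8 in RP (-0.81, SE 0.064 against RPT; -1.09, SE 0.064 against RP). Tgfbr3, the TGF-beta co-receptor betaglycan, was also lowest in RPTi, at 4.33, 4.89 and 4.83 in the RPTi libraries, 14.1, 12.0 and 13.8 in RPT and 14.6, 13.7 and 14.5 in RP (-1.51, SE 0.080 against RPT).

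**Figure D5:**
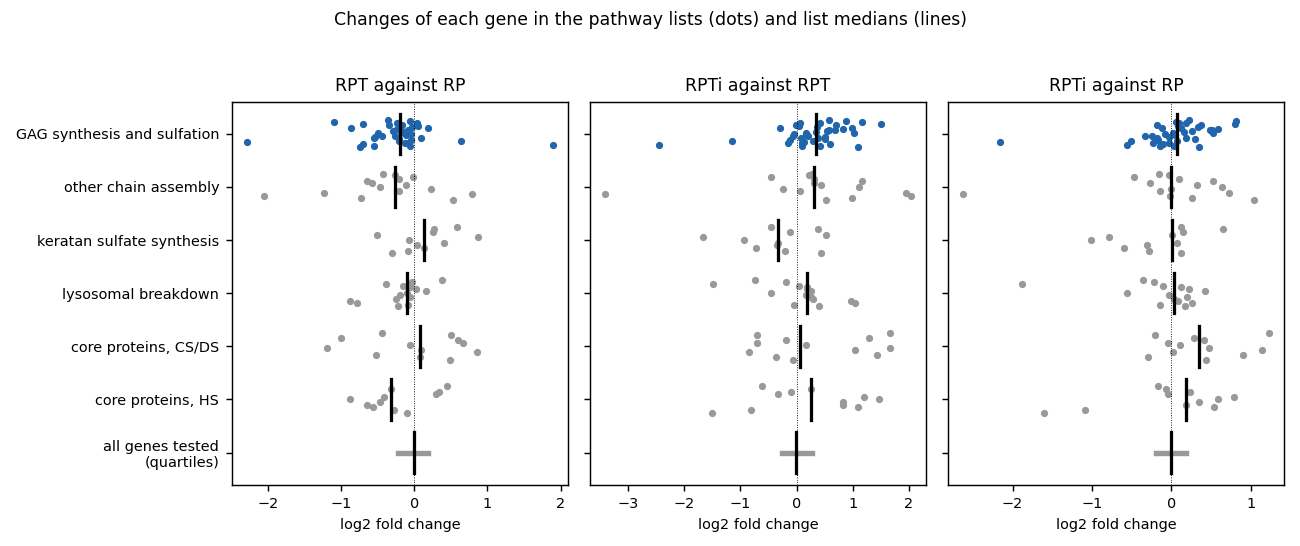
Log2 fold changes (x axis) of single genes (dots) in the 38 glycosaminoglycan synthesis genes (blue) and in 5 related lists (grey), with the median of each list as a black line, in RPT against RP, RPTi against RPT and RPTi against RP. The lowest line gives the median and quartiles of all 13856 genes tested. The blue median is -0.19 in the first panel and 0.35 in the second, while keratan sulfate synthesis has medians of 0.13 and -0.33.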

How the data were processed

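Poly-A RNA of 9 libraries (RPTi, RPT and RP, 3 each) was sequenced as paired-end reads, per the labels' protocols. The deposited files hold whole-number counts per gene and FPKM (counts scaled by gene length and library size) for 18924 genes. Per the submitters' processing notes, the tools were HISAT2, HTSeq 0.11.2 and DESeq2 1.26.0 and the build Rnor_6.0, with no settings listed. From the deposited counts, genes were filtered with edgeR 4.0.16 in R 4.3.3 (filterByExpr, minimum count 10 and total 15, which removed 0.0259% of counts), scaled with TMM factors (0.968 to 1.03) and fitted in 1 quasi-likelihood model over 9 libraries. Calls used a Benjamini-Hochberg adjusted p of 0.05 over 13856 genes. A single count is worth 0.0227 to 0.0314 CPM. Levels divide counts by the gene lengths recovered from the FPKM. Replicates differed by more than sampling noise (chi-square per degree of freedom at least 5.24). Genes described library by library are those past the threshold with a log2 fold change of at least 0.5 either way and a mean of at least 1 CPM, and the most abundant of each role; in the related lists, genes were named from the 3 called with the smallest p in each comparison. Members and lists were chosen with earlier results of these data known. Alternatives were DESeq2 1.42.0 and its size factors, library totals, other count filters, limma 3.58.1 on log2(FPKM + 1), fits of only the 2 groups compared, a replicate block and leaving out each library.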

Additional observations from a re-analysis of the deposited data

How the results depend on the processing

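Of 60 calls on the 38 genes, 47 passed under each of the 17 alternatives, 13 were lost under at least 1 and 0 changed sign. Those lost were B4galt7, Chsy1, Dse, Slc35b2, Ext2, Ndst1 and Ndst2 in RPT against RP and B4galt7, Chpf2, Dse, Papss1, Ndst2 and Hs2st1 in RPTi against RP. Of the 54 values that did not pass, 10 passed under at least 1 alternative and 20 changed sign. Those that passed were Xylt2 in RPT against RP (1 of 17), Csgalnact2 in RPT against RP (1 of 17), Csgalnact2 in RPTi against RPT (11 of 17), Chst14 in RPTi against RPT (1 of 17), Hs2st1 in RPTi against RPT (3 of 17), Glce in RPTi against RPT (1 of 17), Xylt2 in RPTi against RP (3 of 17), Chst15 in RPTi against RP (2 of 17), Slc35b2 in RPTi against RP (3 of 17) and Ext1 in RPTi against RP (4 of 17). Of these 10, the replicate block let pass Xylt2 in RPT against RP, Csgalnact2 in RPT against RP, Csgalnact2 in RPTi against RPT, Chst14 in RPTi against RPT, Xylt2 in RPTi against RP, Slc35b2 in RPTi against RP and Ext1 in RPTi against RP. In RPT against RP, leaving out 1 library at a time gave log2 fold changes of B3galt6 -0.0061 to 0.11, B3gat3 -0.13 to 0.048, Chpf -0.19 to 0.0058, Chst7 -0.25 to 0.021, Chst12 -0.11 to 0.0098, Ugdh -0.048 to 0.11 and Glce -0.19 to 0.027. In RPTi against RPT, leaving out 1 library at a time gave log2 fold changes of Xylt2 -0.089 to 0.050, Chst12 -0.094 to 0.0094, Dse -0.14 to 0.027, Ugdh -0.017 to 0.14 and Ndst2 -1.70 to 0.96. In RPTi against RP, leaving out 1 library at a time gave log2 fold changes of Chst7 -0.080 to 0.18, Chst14 -0.020 to 0.075, Dsel -0.11 to 0.10, Slc26a2 -0.0070 to 0.13, Hs6st1 -0.10 to 0.016, Hs6st2 -0.19 to 0.071 and Glce -0.022 to 0.10. With library totals alone, B3galt6 was at -0.034 and Ugdh was at -0.015 in RPTi against RPT. With library totals alone, Chst7 was at -0.028, Chst14 was at -0.0095 and Glce was at -0.015 in RPTi against RP. With limma on log2(FPKM + 1), B3galt6 was at -0.026, Ugdh was at -0.011 and Ndst2 was at -0.0071 in RPTi against RPT. With limma on log2(FPKM + 1), Chst7 was at -0.0046, Chst14 was at -0.010 and Glce was at -0.015 in RPTi against RP. With the replicate block, Ndst2 was at -0.075 in RPTi against RPT. The cause of these sign changes was not tested. The number of the 38 genes called over the alternatives was 16 to 23 in RPT against RP, 23 to 25 in RPTi against RPT and 11 to 20 in RPTi against RP. Whether same-numbered libraries share a batch or an animal is not labelled. Deviations of same-numbered libraries correlated at -0.114 to 0.124, and 3 of 9 libraries lay closest to their own number. Replicates 2 and 3 differed most in each group (chi-square per degree of freedom 12.1 in RPTi, 28.8 in RPT and 21.1 in RP). With the replicate number as a block, 23, 25 and 19 of the 38 genes and 5074, 6698 and 4689 of all genes were called in RPT against RP, RPTi against RPT and RPTi against RP. Without the block, 21, 23 and 16 of the 38 genes and 3999, 5745 and 3352 of all genes were called. These values do not settle whether replicate numbers pair the libraries. From FPKM as deposited, summed mean levels that moved by more than 1 SD were linker 294 in RPTi; chondroitin chain 319.8 in RPTi, 220.0 in RPT and 259.8 in RP; chondroitin and dermatan sulfation and epimerization 192 in RPTi and 152 in RPT; heparan chain 181 in RPTi and 196 in RPT; heparan modification 104 in RPTi; endosulfatases 165 in RPTi. Depth limits Chst7, Hs3st1 and Ndst2, and left Chst13 untested.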
